A study of Mus musculus with 16 samples.

Results

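The genes described here are 10 members of the fibroblast growth factor (FGF) system. They are the ligands Fgf4, Fgf8, Fgf15 and Fgf17, the receptors Fgfr1, Fgfr2, Fgfr3 and Fgfr4, the receptor adaptor Frs2 and the secreted FGF-binding protein Fgfbp3. They were picked by gene symbol, and all 10 were found among the 52636 Ensembl gene IDs that were counted. A filter on low counts left 12742 genes for testing, 7 of the 10 members among them; Fgf8, Fgf15 and Fgfbp3 did not pass it and are described by their counts. RNA was measured by total RNA sequencing after ribosomal RNA depletion, in 16 libraries of the mouse cell line CRAFR26. The labels call the cell type RSC, a pluripotent state kept in culture and derived from mouse embryonic stem cells. Every group carried a c-RAF kinase construct that 4-hydroxytamoxifen (4OHT) switches on, and c-RAF activates the kinases MEK and ERK. Every group, the uninduced one included, had spent 48 h in 250 nM of the FGF receptor inhibitor PD17 (PD173074), which took the place of the MEK inhibitor PD03 (PD0325901) in a medium that also held IWP2 and LIF. The group 0h had received nothing more. The groups 2h and 4h had then received 250 nM 4OHT for 2 h and 4 h. The group rev had received 4OHT for 4 h and a MEK inhibitor for 2 h, at a dose the labels do not give. No group with 6 h of 4OHT and no MEK inhibitor was analysed here, so rev against 4h carries both the inhibitor and the longer culture. Each group held 4 libraries, 2 from clone 4 and 2 from clone 8, each clone being 1 line. The labels do not say that the 2 libraries of a clone came from separate cultures, so the spread between them may be technical. In fits of each clone alone and of clone differences, p-values measure only that spread. In the fits over both clones they measure it together with the difference between these 2 clones in response.

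FGF ligands are secreted proteins that bind receptor tyrosine kinases at the cell surface together with heparan sulfate. An active receptor phosphorylates the docking protein Frs2, which recruits Grb2, Sos and Ptpn11 and so switches on RAS, RAF, MEK and ERK; Sprouty, Spred and Dusp proteins dampen the same route. In mouse pluripotent cells Fgf4 is the main ligand that the cells make for themselves, a known target of Oct4 and Sox2, and FGF signalling through ERK moves cells out of the naive state. PD17 is an inhibitor of the receptors, and the construct enters the route below them. The labels give the 48 h in PD17 before induction but do not say whether PD17 stayed in the medium afterwards.

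Library totals ran from 4.31 to 10.4 M counts, of which 8 features above 1% each held 46.7% to 78.9%. Levels are given as CPM, counts relative to the library's total over the tested genes after TMM scaling, and 3 counts, the floor used here, came to 0.21 to 0.908 CPM by library. Floors cover counting error only. The rev library 8_1 stood apart, with the largest share in those features, the fewest counts outside them (1.30 M) and a TMM factor of 0.537; libraries are named here by clone and number. On the third principal component of the 500 most variable genes (8.57% of the variance) all 0h and 4h libraries lay on one side and all 2h and rev libraries on the other. The labels give no batch, and each side holds whole groups, so this split and the groups cannot be told apart in any comparison between a group of one side and a group of the other. Of the comparisons given here only 4h with 0h stays on one side. The contrast of induced libraries (the mean of 2h and 4h) with those not induced (the mean of 0h and rev) is orthogonal to the split. The name not induced is short: rev had also received 4OHT for 4 h, followed by the MEK inhibitor. This contrast thus sets 4OHT without the MEK inhibitor against no 4OHT and 4OHT with it. All 11 markers of rosette and general pluripotency were detected and tested, with a summed level of 1441 to 1881 CPM at 0h, 1495 to 2050 at 2h, 1083 to 1862 at 4h and 1619 to 2110 at rev. None of 6 fibroblast markers passed the filter, and their sum stayed between 0.919 and 4.54 CPM. The 7 primitive streak markers summed to 3.94 to 4.98 CPM at 0h, 7.07 to 13.2 at 2h, 7.54 to 17.0 at 4h and 5.89 to 9.02 at rev. The 6 neural markers summed to 4.20 to 6.37 CPM at 0h, 5.32 to 8.82 at 2h, 6.23 to 23.5 at 4h and 5.76 to 6.52 at rev. The 6 primitive endoderm markers summed to 4.77 to 5.60 CPM at 0h, 5.7 to 7.19 at 2h, 3.32 to 4.80 at 4h and 6.01 to 9.99 at rev. The 5 trophoblast markers summed to 47.9 to 71.9 CPM at 0h, 29.2 to 77.7 at 2h, 36.9 to 52.6 at 4h and 36.1 to 57.5 at rev. The 4 matched markers of primed or formative cells summed to 5.76 to 7.76 CPM at 0h, 6.17 to 9.47 at 2h, 7.96 to 26.7 at 4h and 5.53 to 9.69 at rev. None of these markers was at 0 in all libraries, but 1 primitive streak, 3 neural and 3 fibroblast markers had at most 3 counts in each.

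Over both clones, the ligand Fgf4 and the receptors Fgfr1 and Fgfr2 were lower at 4h, and Fgf4 and Fgfr1 were higher again at rev. At 4h against 0h the transcripts of Fgf4, Fgfr1 and Fgfr2 fell, to 46.7%, 74.7% and 37.3% of their mean CPM at 0h. At 2h the adaptor Frs2 rose, to 143.2% of its 0h mean. At rev, Fgf4 and Fgfr1 were higher than at 4h and stood at 116.6% and 100.8% of their 0h means. The changes depended on the clone. At 4h Fgf4 stood at 27.6% of its 0h mean in clone 4 and 70.8% in clone 8. Fgfr1 stood at 55.3% and 95.2%. With clone 8 fitted alone, the changes of Fgfr1 (-0.07, adjusted p = 0.73) and Fgfr2 (-0.57, adjusted p = 0.0725) at 4h against 0h were not called. Nor was that of Fgfr1 at rev against 4h (0.17, adjusted p = 0.356). The tests over both clones were edgeR's quasi-likelihood test over all 16 libraries with clone as a covariate. A gene was called at a Benjamini-Hochberg adjusted p under 0.05, over all 12742 genes in the fit of both clones.

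Per length, Fgf4 was by far the most abundant member. Levels between genes are compared as CPM per kb of exon, averaged over the 16 libraries. Fgf4 stood at 60.8 ± 20.2 CPM per kb (SD, n = 16), above 98.4% of the tested genes, and Fgfr1 at 11.2 ± 2.04, above 86.1%. Frs2 stood at 4.24 ± 1.18, Fgfr2 at 2.20 ± 1.64 and Fgf17 at 1.56 ± 0.854. The ranges of Fgf4, Fgfr1 and Frs2 did not overlap. Frs2 exceeded Fgfr2 in 14 of 16 libraries and Fgfr2 exceeded Fgf17 in 8 of 16, so the latter pair could not be ordered. Fgf17 exceeded Fgfr4 in 16 of 16, although their ranges overlapped. Below these came Fgfr4 at 0.346 CPM per kb, Fgfbp3 at 0.232, Fgf8 at 0.220, Fgf15 at 0.165 and Fgfr3 at 0.161, and neighbours among these 5 did not differ beyond their spread, the higher mean being higher in 11, 9, 7 and 8 of 16 libraries.

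**Figure D1:**
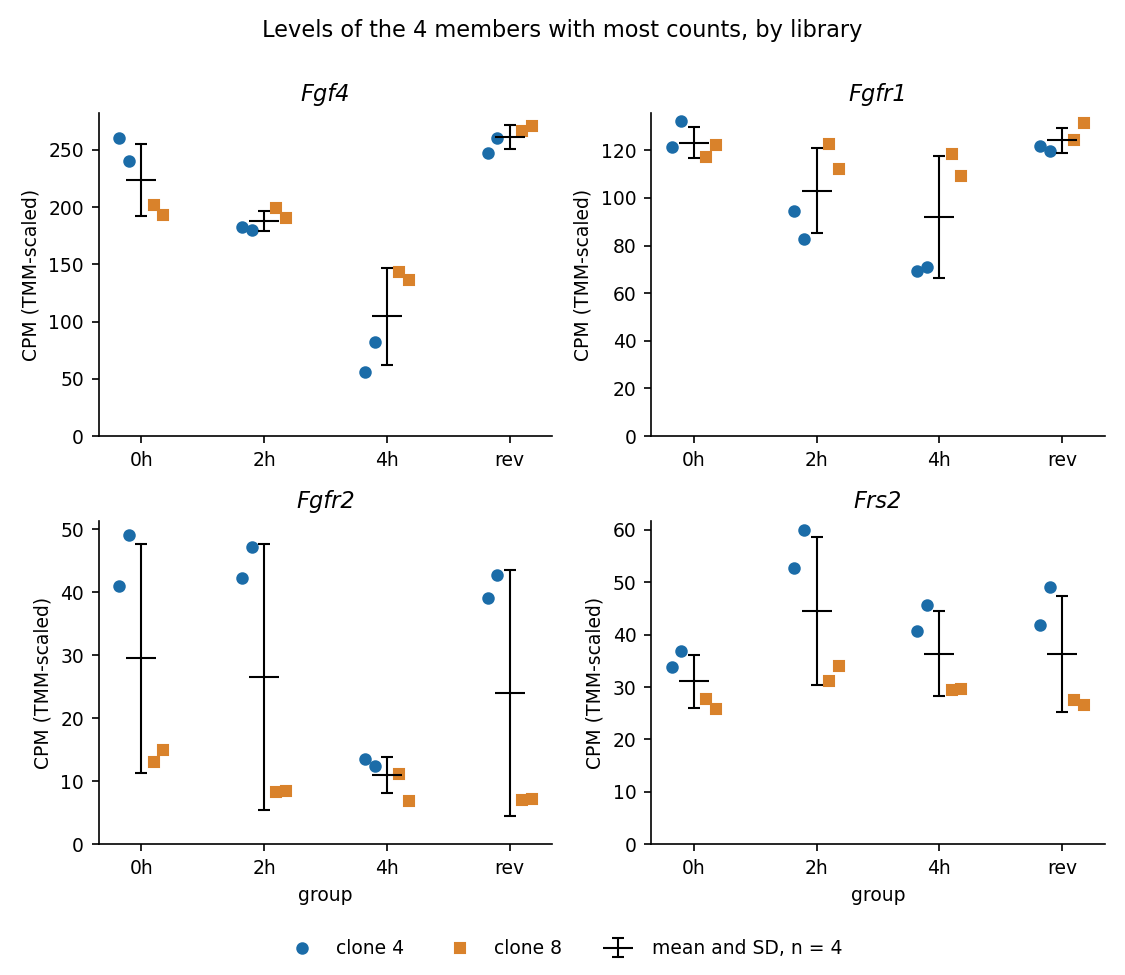
CPM of Fgf4, Fgfr1, Fgfr2 and Frs2 (vertical axes, TMM-scaled, from 0) in each of the 16 libraries by group, with circles for clone 4, squares for clone 8 and bars for the mean and SD of the 4 libraries. Fgf4 at 4h lies between 56.1 and 143.5 CPM, below all other libraries, and Fgfr2 is high in clone 4 except at 4h.

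The DNA just upstream of the RefSeq starts of Fgf4, Fgfr2 and Frs2 is shown because Fgf4 and Fgfr2 fell most at 4h and Frs2 was the member that rose at 2h. The stretches are RefSeq's 250 bases before each start on the build GRCm38.p6, 5′ to 3′ along the gene, found for 6 of the 10 members. That of Frs2 is cut to 190 bases so as to end before its outermost GENCODE exon. The spans printed for the genes are those of GENCODE, which for Fgf4 begins 14 kb upstream of the RefSeq start and for Fgfr2 much farther upstream, so both of these windows lie inside the GENCODE span, between exons. Capitals mark matches to 8 motifs that were searched on both strands and are spelled out after the sequences. They lie at chr7:144861136-144861385 on the plus strand (Fgf4), chr7:130266809-130267058 on the minus strand (Fgfr2) and chr10:117148535-117148724 on the minus strand (Frs2).
Fgf4: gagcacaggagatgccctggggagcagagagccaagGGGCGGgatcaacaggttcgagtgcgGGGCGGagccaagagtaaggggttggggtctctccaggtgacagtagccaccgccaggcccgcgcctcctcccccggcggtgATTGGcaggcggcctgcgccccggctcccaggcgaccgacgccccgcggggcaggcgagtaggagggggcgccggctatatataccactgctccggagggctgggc
Fgfr2: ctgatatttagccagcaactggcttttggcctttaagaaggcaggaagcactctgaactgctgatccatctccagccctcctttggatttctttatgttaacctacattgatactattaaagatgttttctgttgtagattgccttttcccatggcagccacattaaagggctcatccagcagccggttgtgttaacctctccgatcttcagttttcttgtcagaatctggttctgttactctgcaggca
Frs2: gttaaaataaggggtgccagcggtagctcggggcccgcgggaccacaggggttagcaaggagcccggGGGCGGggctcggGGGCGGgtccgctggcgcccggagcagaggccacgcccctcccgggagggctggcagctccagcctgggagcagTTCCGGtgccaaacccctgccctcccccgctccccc
Fgf4 has 2 GC boxes, 214 and 188 bases before its start, and a CCAAT box on the other strand at 106, and its 250 bases are 71.2% G or C. Frs2 has 2 GC boxes, at 183 and 170 bases, and an ETS core on the other strand at 96. Its full window is 71.6% G or C and holds a second ETS core at 62, in the bases not shown. Fgfr2 has none of the 8 motifs, and its window is 44% G or C. Among all 32851 such windows of 250 bases, the GC box, searched as GGGCGG, was found in 32.7%. The CCAAT box, searched as those 5 letters, was found in 33.8%, and the TATA box, searched as TATAAA, in 12.4%. The binding core of ETS factors, searched as CCGGAA, was found in 12%, and the site of AP-1, searched as TGANTCA, in 6.75%. The longer site of EGR factors, searched as GCGTGGGCG, was found in 0.536%. The cyclic AMP response element, searched as TGACGTCA, was found in 1.55%, and the octamer of POU factors, searched as ATGCAAAT, in 1.6%. These are letter matches only.

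Fgf4 (ENSMUSG00000050917, chr7:144847367-144865243, plus strand, GRCm38) fell at 4h in both clones. At 0h it stood at 260.1 and 239.9 CPM in the clone 4 libraries and 201.7 and 193.4 in the clone 8 libraries. At 2h it stood at 182.5 and 179.6 CPM in clone 4 and 198.9 and 190.8 in clone 8. Clone 4 was thus below all its 0h libraries at 2h, whereas clone 8 was not. At 4h it stood at 56.1 and 82.0 CPM in clone 4 and 143.5 and 136.5 in clone 8, and at rev at 246.9 and 260.3 in clone 4 and 266.4 and 270.4 in clone 8. The 4h libraries of both clones lay below every library of the other groups, and the rev libraries overlapped those of 0h. The change at 4h against 0h was -1.13 ± 0.18 on the log2 scale (SE, adjusted p = 0.000433), and that at 4h against 2h was -0.87 ± 0.18 (adjusted p = 0.00501). At 2h against 0h it was -0.26 ± 0.18 (adjusted p = 0.325). Fgf4 rose at rev against 4h by 1.34 ± 0.18 (adjusted p = 0.000108; 1.37 without the rev library 8_1, adjusted p = 0.00035), and at rev against 0h the difference was 0.21 ± 0.18 (adjusted p = 0.482). These comparisons share groups, so their values stand side by side and do not back each other. Induced against not induced, which balances the split between libraries, gave a fall of 0.80 on the log2 scale (SE 0.13, adjusted p = 0.000399). In bulk libraries, fewer cells with the transcript and less of it per cell cannot be told apart. In the same contrast 2 of the 11 markers of rosette and general pluripotency fell, Nanog by 0.52 (adjusted p = 0.00659) and Klf4 by 0.45 (adjusted p = 0.0318), and 1 rose, Utf1 by 0.79 (adjusted p = 2.29e-05). The other naive factors of that list were not called: Esrrb was at 0.05 (adjusted p = 0.83), Zfp42 at 0.06 (adjusted p = 0.693) and Tfcp2l1 at -0.32 (adjusted p = 0.0933). Eomes and Evx1, the 2 tested of 7 primitive streak markers, rose by 0.77 (adjusted p = 0.00218) and 2.15 (adjusted p = 1.79e-05). Of the tested neural markers Pax6 rose by 1.75 (adjusted p = 5.76e-05) and Sox1 fell by 0.80 (adjusted p = 0.0159). Of the primed or formative markers Pou3f1 rose by 0.90 (adjusted p = 0.0454), and Lef1 and Sox3 were not called (adjusted p = 0.134 and 0.997). No tested primitive endoderm or trophoblast marker was called in induced against not induced libraries. At rev against 0h, where 10.5% of all genes were called, 2 of 3 tested primitive endoderm markers were called higher and 0 lower. Of 3 tested trophoblast markers 1 was called higher there and 0 lower. Pou5f1 and Sox2, which code for the factors that switch on Fgf4, averaged 147.6 and 221.8 CPM at 0h and 164.3 and 217.0 at 4h. The part of these genes in the change of Fgf4 was not tested.

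Fgf4 has ligand genes as neighbours on chromosome 7. Between the GENCODE spans, Fgf3 lies 2.93 kb and Fgf15 31.3 kb away. Fgf3, with 2 to 18 counts a library, changed by -0.27 at 4h against 0h (adjusted p = 0.726) and by -0.50 in induced against not induced libraries (adjusted p = 0.257), neither of which was called.

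The genes whose profile over the 16 libraries was nearest to that of Fgf4 were Trim62, Klf8 and Mlycd. Likeness is the root mean square distance of log2 CPM after each gene was centred on its own mean. It was 0.186 for Trim62, 0.274 for Klf8 and 0.282 for Mlycd, against an SD of 0.634 for Fgf4 itself. Klf8, a zinc-finger transcription factor, averaged 41.9 ± 4.51 CPM at 0h, 38.4 ± 6.47 at 2h, 26.1 ± 12.8 at 4h and 48.2 ± 7.30 at rev (SD, n = 4). In Klf8 the 4h mean was 15.1 CPM in clone 4 and 37.0 in clone 8. Klf8 was picked by its likeness to Fgf4 in these same libraries, so sharing the order of the clones is no separate result.

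Fgf17 (ENSMUSG00000022101, chr14:70636203-70642268, minus strand), a ligand of the Fgf8 subfamily, was the only other ligand of the 10 members with enough counts for a test. It stood between 1.60 and 2.08 CPM at 0h, 1.04 and 2.58 at 2h, 2.91 and 3.56 at 4h, and 1.24 and 6.96 at rev. All 4 libraries at 4h lay above all at 0h and 2h. The change at 4h against 0h was 0.81 ± 0.34 (adjusted p = 0.117) and did not pass the test. At rev the clones lay apart, at 1.24 and 1.84 CPM in clone 4 and 6.96 and 3.71 in clone 8, the highest being 23 counts in the library 8_1.

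Fgf8 and Fgf15 were near the limit of detection. Fgf8 (ENSMUSG00000025219, chr19:45736798-45742915, minus strand), a ligand of gastrulating and patterning tissues, had 1 count in all 4 libraries together at 0h. It had 2 to 4 counts a library at 2h, 5 and 2 in clone 4 and 0 and 0 in clone 8 at 4h, and 9 and 5 in clone 4 and 1 and 1 in clone 8 at rev. Fgf15 (ENSMUSG00000031073, chr7:144896531-144900953, plus strand), the mouse counterpart of human FGF19, had 0 to 3 counts a library at 0h, 3 to 9 at 2h, 1 to 6 at 4h and 1 to 9 at rev. Of its exon length 25.7% is shared with predicted genes on the opposite strand, Gm26793 and Gm39119, which had at most 1 count in any library. Both ligands overlapped between the groups in CPM, apart from Fgf8 at 0h and 2h, which met at 0.152 CPM, under the floor.

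**Figure D2:**
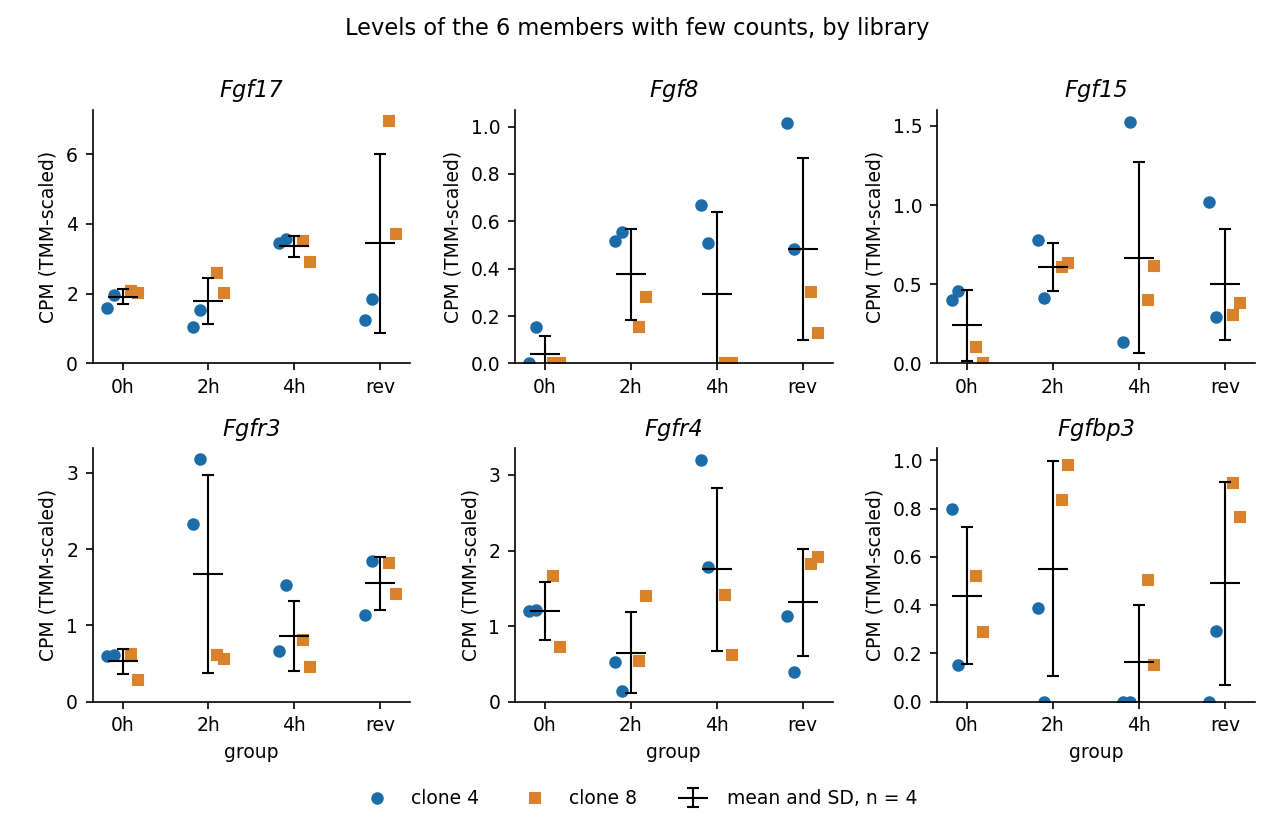
CPM of the 6 members with few counts (vertical axes, TMM-scaled, from 0) in each library by group, with circles for clone 4, squares for clone 8 and bars for the mean and SD of the 4 libraries. The 4 Fgf17 libraries at 4h lie between 2.91 and 3.56 CPM, and Fgf8, Fgf15 and Fgfbp3 stay at or below 1.52 CPM.

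Fgfr1 (ENSMUSG00000031565, chr8:25513654-25575718, plus strand), the main FGF receptor of mouse pluripotent cells, was the leading receptor transcript in every library. At 0h it stood at 121.3 and 132.3 CPM in clone 4 and 116.9 and 122.3 in clone 8. At 2h it stood at 94.5 and 82.7 in clone 4 and 122.6 and 112.2 in clone 8, and at 4h at 69.2 and 71.1 in clone 4 and 118.4 and 109.2 in clone 8. At rev it stood at 121.8 and 119.5 in clone 4 and 124.1 and 131.5 in clone 8. Clone 4 was thus lower at 2h and 4h than at 0h and rev, whereas in clone 8 the 0h, 2h and 4h libraries overlapped and both rev libraries lay just above them. Over both clones Fgfr1 fell at 4h against 0h by 0.44 on the log2 scale (SE 0.12, adjusted p = 0.0181) and rose at rev against 4h by 0.46 ± 0.12 (adjusted p = 0.0202). It fell in induced against not induced libraries by 0.37 (SE 0.08, adjusted p = 0.00944). The difference was -0.27 ± 0.12 at 2h against 0h (adjusted p = 0.116), -0.17 at 4h against 2h (adjusted p = 0.359) and 0.01 at rev against 0h (adjusted p = 0.965). The call at 4h against 0h was lost without any 1 of the 4 clone 4 libraries at 0h and 4h (adjusted p = 0.0615 to 0.0845), and that at rev against 4h without any 1 of the 4 clone 4 libraries at 4h and rev (adjusted p = 0.0686 to 0.0953). Both were also lost with library totals in place of TMM (adjusted p = 0.356 and 0.648) and without the clone covariate (0.147 and 0.173), as was that of induced against not induced (0.564 and 0.127). With clone 8 alone the changes of Fgfr1 were -0.07 at 4h against 0h (adjusted p = 0.73) and 0.17 at rev against 4h (0.356). In induced against not induced libraries it was at -0.10 in clone 8 alone (adjusted p = 0.42). An antisense gene, Gm16159, shares 1.66% of the exon length and had 1 to 19 counts.

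Fgfr2 (ENSMUSG00000030849, chr7:130162451-133123350, minus strand), a receptor known from primitive endoderm and trophectoderm, differed most between the clones. At 0h it stood at 41.0 and 49.1 CPM in clone 4 and 13.0 and 14.9 in clone 8, and at 2h at 42.3 and 47.3 in clone 4 and 8.28 and 8.41 in clone 8. At 4h it stood at 13.5 and 12.4 in clone 4 and 11.2 and 6.89 in clone 8, and at rev at 39.1 and 42.7 in clone 4 and 6.96 and 7.16 in clone 8. The clones did not overlap in any group, and they came nearest at 4h. Over both clones Fgfr2 fell at 4h against 0h by 1.17 (SE 0.28, adjusted p = 0.00874) and at 4h against 2h by 0.86 (SE 0.27, adjusted p = 0.0467). Without the 4h library 4_1 the former was -0.89 (adjusted p = 0.0504), and without the clone covariate its adjusted p was 0.272. The latter was near the threshold. It was lost with the replicate block (adjusted p = 0.0733), DESeq2 (0.139), library totals (0.0517) and no clone covariate (0.33), and with clone 8 alone the difference was 0.17 (adjusted p = 0.641). It was also lost without any 1 of the 4 libraries at 0h, the clone 4 libraries at 2h and 4h, or rev 4_1, where it lay between -0.58 and -0.85 (adjusted p = 0.0516 to 0.215). At rev against 4h the difference was 0.77 ± 0.29 (adjusted p = 0.0934; 2.0e-05 with no filter), which became 1.23 (adjusted p = 0.00145) without the 4h library 8_1. In induced against not induced libraries the difference was -0.54 ± 0.19 (adjusted p = 0.0824; 8.72e-06 with no filter), and -0.78 (adjusted p = 0.00154) without the same library. The GENCODE model of Fgfr2 includes 1 transcript that reaches into Ctbp2 on the same strand, and 3.04% of its exon length is shared. Ctbp2 changed in the opposite direction at 4h against 0h, by 0.52 (adjusted p = 0.000994).

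Fgfr3 (ENSMUSG00000054252, chr5:33721674-33737068, plus strand) and Fgfr4 (ENSMUSG00000005320, chr13:55152640-55168759, plus strand) are receptors best known from cartilage and from liver. Both had few counts, 2 to 23 and 1 to 24 a library. Fgfr3 stood at 0.287 to 0.623 CPM at 0h, and at 2h at 2.33 and 3.18 in clone 4 and 0.608 and 0.561 in clone 8. It stood at 0.459 to 1.52 CPM at 4h and 1.13 to 1.84 at rev, so all rev libraries lay above all 0h libraries. The difference at 2h against 0h was 1.37 ± 0.48 (adjusted p = 0.0549), and with clone 4 fitted alone Fgfr3 rose by 2.15 ± 0.55 (adjusted p = 0.00695). Fgfr3 could not be tested in clone 8 alone for its few counts. Of its exon length 13.9% is shared with an antisense gene that had at most 1 count. Fgfr4 stood at 0.719 to 1.66 CPM at 0h, 0.138 to 1.40 at 2h, 0.613 to 3.20 at 4h and 0.388 to 1.92 at rev. The groups overlapped, and none of its 5 comparisons between groups passed the test over both clones. With clone 4 fitted alone Fgfr4 rose at 4h against 2h by 2.92 ± 0.65 (adjusted p = 0.00142) and fell at rev against 4h by 1.82 (SE 0.53, adjusted p = 0.0121), where 27.1% and 24.6% of all genes were called. In clone 8 alone the differences were 0.15 (adjusted p = 0.904) and 0.79 (adjusted p = 0.484). Over both clones 4h against 2h gave 1.28 (adjusted p = 0.119), and it was called with no filter (adjusted p = 0.015), without 2h 8_2 (0.0457) and without 4h 8_2 (0.0407).

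Per length, Fgfr1 made up 62.3% to 92.4% of the summed transcript level of the 4 receptors in every library, and Fgfr3 with Fgfr4 at most 10.7%. The summed level in clone 4 averaged 17.6 CPM per kb at 0h, 13.8 at 2h, 9.22 at 4h and 16.6 at rev. In clone 8 it averaged 13.9, 13.1, 12.8 and 14.4. The share of Fgfr2 in clone 4 averaged 24.7% at 0h, 31.5% at 2h, 13.6% at 4h and 23.9% at rev, and in clone 8 9.74%, 6.20%, 6.77% and 4.76%. From 0h to 4h the share of Fgfr1 in clone 4 went from 72.9% to 77.1%, and that of Fgfr3 with Fgfr4 from 2.42% to 9.27%, of a summed level that was lower at 4h. The latter share rests on few counts, 5 and 6 of Fgfr3 and 24 and 7 of Fgfr4 in the 4h libraries of clone 4. With clone 4 alone neither Fgfr3 (0.67, adjusted p = 0.576) nor Fgfr4 (1.12, adjusted p = 0.154) was called at 4h against 0h. In clone 8 the share of Fgfr3 with Fgfr4 averaged 2.90% at 0h and 2.87% at 4h.

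**Figure D3:**
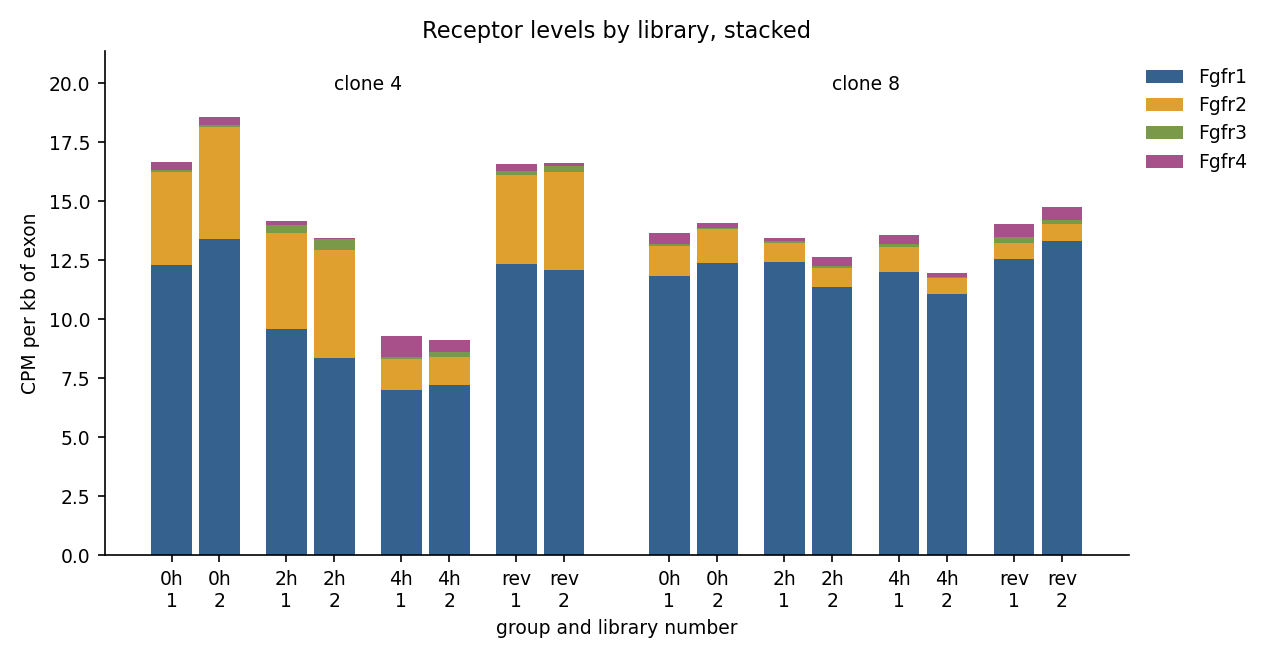
CPM per kb of exon (vertical axis, from 0) of Fgfr1, Fgfr2, Fgfr3 and Fgfr4, stacked for each library, with clone 4 on the left and clone 8 on the right. The stack of clone 4 is 9.31 and 9.12 CPM per kb at 4h and 13.4 to 18.6 in its others, and in clone 8 it stays between 12.0 and 14.8.

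Frs2 (ENSMUSG00000020170, chr10:117069427-117148534, minus strand), the docking protein that links FGF receptors to RAS, was the member called higher at 2h against 0h. At 0h it stood at 33.8 and 36.8 CPM in clone 4 and 27.8 and 25.9 in clone 8, and at 2h at 52.8 and 60.0 in clone 4 and 31.2 and 33.9 in clone 8. At 4h it stood at 40.8 and 45.7 in clone 4 and 29.4 and 29.7 in clone 8, and at rev at 41.9 and 49.2 in clone 4 and 27.6 and 26.6 in clone 8. Within each clone both 2h libraries lay above both libraries of every other group, and clone 8 lay below clone 4 in each group. Frs2 rose at 2h against 0h by 0.47 ± 0.10 (adjusted p = 0.00292). The difference was 0.21 ± 0.10 at 4h against 0h (adjusted p = 0.184), -0.27 ± 0.10 at 4h against 2h (adjusted p = 0.0743) and -0.01 ± 0.10 at rev against 4h (adjusted p = 0.959). At rev against 0h it was 0.19 ± 0.10 (adjusted p = 0.229). With clone 4 alone that was 0.37 (adjusted p = 0.0491), and with clone 8 alone -0.00079 (adjusted p = 0.998). Of these comparisons 2h against 0h crosses the split between libraries and 4h against 0h does not. The call at 2h was lost with clone 8 alone (0.27, adjusted p = 0.0645), without the clone covariate (0.51, adjusted p = 0.215) and with library totals in place of TMM (0.57, adjusted p = 0.21). The genes of nearest profile were Smcr8, Dmtf1 and Tpd52, at distances of 0.126, 0.129 and 0.13 against an SD of 0.378 for Frs2.

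Fgfbp3 (ENSMUSG00000047632, chr19:36917550-36919615, minus strand), which releases FGF from heparan sulfate, had 1 to 5 counts a library at 0h, 0 to 14 at 2h, 0 to 5 at 4h and 0 to 6 at rev. It was at 0 in 4 libraries, all of clone 4, and a count of 0 allows up to the floor of 3 counts given above.

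The members were few, so their counts of calls are read against the share of all 12742 tested genes. At 2h against 0h 1 of 7 tested members was called (Frs2), and 17.0% of all genes were, so this count is near the background. At 4h against 0h 3 of 7 were called, all lower (Fgf4, Fgfr1, Fgfr2), whereas 12.9% of all genes were called and 5.56% were called lower. At 4h against 2h 2 of 7 were called, both lower (Fgf4, Fgfr2), where 12.1% of all genes were called and 6.36% were called lower. Without the call of Fgfr2, which was lost under the replicate block, DESeq2 and 9 of the 16 leave-outs given above, 1 of 7 would be left, near this background. At rev against 4h 2 of 7 were called, both higher (Fgf4, Fgfr1), where 9.61% of all genes were called and 4.50% were called higher. At rev against 0h 0 of 7 were called, by edgeR's test or by DESeq2, where 10.5% of all genes were called by edgeR; Fgfr3 was the 1 member with an unadjusted p under 0.05 (1.35 ± 0.50, adjusted p = 0.091). With clone 8 fitted alone, where 9.90% of all genes were called, rev against 0h called 3 of 6 tested members: Fgf4 higher (0.44, adjusted p = 0.00326), Fgfr2 lower (-0.97, adjusted p = 0.00625) and Fgf17 higher (1.21, adjusted p = 0.0292). In induced against not induced libraries 8.28% of all genes were called, 4.84% higher and 3.44% lower; of the members Frs2 rose (0.24 ± 0.07, adjusted p = 0.035) and Fgf4 and Fgfr1 fell. The call of Frs2 there was lost without any 1 of 11 of the 16 libraries, all but 0h 8_1, 0h 8_2, 2h 8_1, 4h 4_1 and rev 4_2 (adjusted p = 0.0516 to 0.0829), and with no filter (0.0618) or clone 8 alone (0.129).

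**Figure D4:**
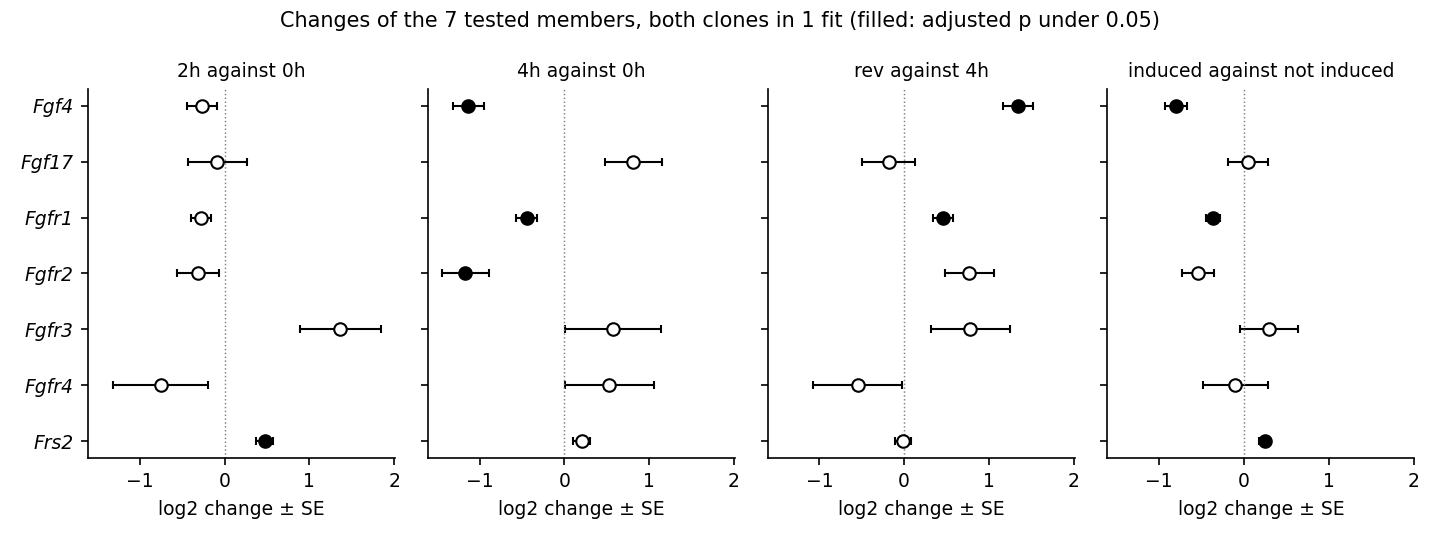
Log2 change ± SE (horizontal axes) of the 7 tested members in 4 comparisons, from the fit over both clones, with filled points for an adjusted p under 0.05. Fgf4 is at -1.13 at 4h against 0h and at 1.34 at rev against 4h, and the wide bars of Fgfr3 and Fgfr4 go with their few counts.

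The contrast that follows the split between libraries, 2h and rev against 0h and 4h, called 17.7% of all genes tested, with 9.73% of all genes tested being higher at 2h and rev. Of the members it called Fgfr3 (1.07 ± 0.34, adjusted p = 0.0323), Fgf4 (0.54 ± 0.13, adjusted p = 0.00657) and Frs2 (0.23 ± 0.07, adjusted p = 0.0282), all higher at 2h and rev. Fgfr3 lost the call without any 1 of 9 libraries, 0h 4_1, 0h 4_2, 0h 8_2, 2h 4_1, 2h 4_2, 4h 4_1, rev 4_2, rev 8_1 and rev 8_2 (adjusted p = 0.0506 to 0.0856). Frs2 lost it without 0h 4_1, 0h 4_2, 2h 4_2, 4h 4_1 or rev 4_2 (adjusted p = 0.057 to 0.0817), with no filter (0.0536) and with clone 8 alone (0.07, adjusted p = 0.601). With library totals all 3 calls were lost (adjusted p = 0.0751, 0.0887 and 0.719). For these genes the comparisons across the split carry this difference as well.

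Averaged over the groups, the clones differed in the level of most tested members. Of the members called, only Fgfr2 and Frs2 differed in the same direction in every group. Clone 8 against clone 4, over all groups, called 5 of 7 members, where 34.9% of all genes were called, 17.1% higher in clone 8 and 17.8% lower. Fgfr2 was lower in clone 8 by 1.84 on the log2 scale (SE 0.19, adjusted p = 3.39e-07, given as -1.84 in clone 8 minus clone 4), Fgfr3 by -0.95 ± 0.32 (adjusted p = 0.0275) and Frs2 by -0.63 ± 0.07 (adjusted p = 7.51e-07). Fgf17 was higher in clone 8 by 0.65 ± 0.24 (adjusted p = 0.0364; 0.49 and 0.0779 without the rev library 8_1) and Fgfr1 by 0.27 ± 0.08 (adjusted p = 0.0161). Fgf4 differed by 0.20 ± 0.13 (adjusted p = 0.242). In Ctbp2, which shares exon sequence with Fgfr2, the difference was -0.34 (adjusted p = 0.000395). The calls of Fgfr3 and Fgf17 were also lost without single other libraries, Fgfr3 without any 1 of the 4 at 2h and Fgf17 without 2h 4_1, 2h 8_1, rev 4_1, rev 4_2 or rev 8_2. That of Fgfr3 was lost with DESeq2 (adjusted p = 0.0588), and those of Fgfr3 and Fgfr1 with library totals (0.0908 and 0.145).

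The response to induction differed between the clones for Fgf4, Fgfr1 and Fgfr2. The difference was tested as an interaction term and is given as clone 8 minus clone 4. At 4h against 0h this difference called 5.72% of all genes and 3 of 7 members: Fgf4 (1.39 ± 0.17, adjusted p = 6.81e-07), Fgfr2 (1.22 ± 0.24, adjusted p = 0.0011) and Fgfr1 (0.79 ± 0.15, adjusted p = 0.000447). Each fell more in clone 4. With each clone fitted alone 4h against 0h called 19.0% of all genes in clone 4 and 6.28% in clone 8. Fgf4 fell at 4h by 1.89 (SE 0.13, adjusted p = 6.59e-11) in clone 4 and by 0.50 (SE 0.09, adjusted p = 0.00178) in clone 8. Fgfr1 fell by 0.87 (SE 0.11, adjusted p = 2.34e-06) in clone 4, against -0.07 ± 0.09 (adjusted p = 0.73) in clone 8. Fgfr2 fell by 1.80 (SE 0.15, adjusted p = 2.08e-09) in clone 4, against -0.57 ± 0.18 (adjusted p = 0.0725) in clone 8. The difference between clones for Fgfr2 was 0.79 (adjusted p = 0.143) without the 4h library 8_1, and that for Fgfr1 was 1.11 (adjusted p = 0.134) with library totals.

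**Figure D5:**
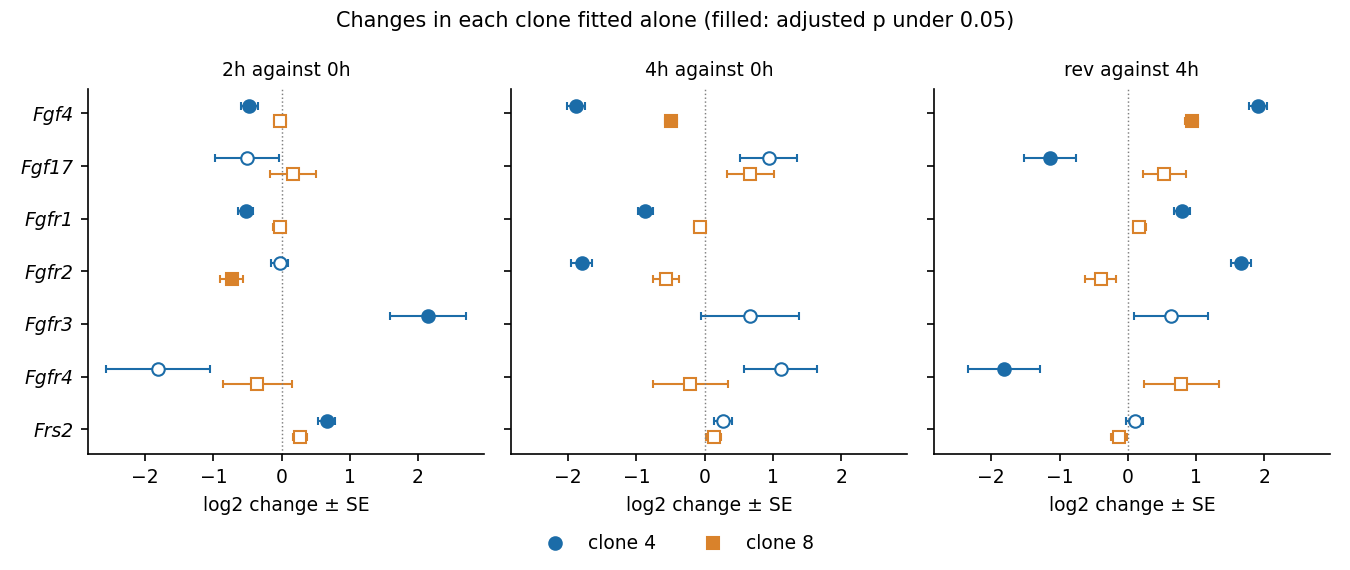
Log2 change ± SE (horizontal axes) of the tested members with clone 4 (circles) and clone 8 (squares) fitted alone, in panels for 2h and 4h, each against 0h, and for rev against 4h, with filled points for an adjusted p under 0.05. At 4h against 0h Fgf4, Fgfr1 and Fgfr2 of clone 4 lie at -1.89, -0.87 and -1.80, left of those of clone 8 at -0.50, -0.07 and -0.57; Fgfr3 is shown for clone 4 alone.

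At 2h against 0h the difference between clones called 7.94% of all genes and 2 of 7 members, Fgfr1 (0.49 ± 0.14, adjusted p = 0.0246) and Fgfr2 (-0.71 ± 0.21, adjusted p = 0.0305). Both were near the threshold. That of Fgfr1 was lost without 0h 4_2, 0h 8_1, 0h 8_2, 2h 4_2 or 2h 8_1 (adjusted p = 0.0623 to 0.137) and with library totals (0.0651). That of Fgfr2 was lost without 0h 4_1, 0h 8_1, 0h 8_2, 2h 4_2, 2h 8_1 or 2h 8_2 (adjusted p = 0.0656 to 0.148), with DESeq2 (0.113), with no filter (0.0608) and with library totals (-0.14, adjusted p = 0.813). With each clone fitted alone 2h against 0h called 20.7% of all genes in clone 4 and 17.8% in clone 8. Fgfr1 fell at 2h in clone 4 (by 0.53, SE 0.11, adjusted p = 0.00119), with -0.03 ± 0.09 in clone 8. Fgfr2 fell at 2h in clone 8 (by 0.73, SE 0.17, adjusted p = 0.00556), with -0.03 ± 0.13 in clone 4. At rev against 4h the difference called 13.2% of all genes and 5 of 7 members, and each clone alone called 24.6% of all genes in clone 4 and 6.42% in clone 8. Fgfr2 rose in clone 4 by 1.66 ± 0.15 (adjusted p = 6.6e-09), against -0.40 ± 0.23 (adjusted p = 0.364) in clone 8, a difference of -2.04 ± 0.27 (adjusted p = 2.25e-06). Fgf4 rose in both, by 1.91 ± 0.13 in clone 4 and 0.94 ± 0.09 in clone 8 (adjusted p = 5.52e-11 and 1.1e-06), a difference of -0.97 ± 0.17 (adjusted p = 0.000117). Fgfr1 differed by -0.61 ± 0.15 (adjusted p = 0.00394). Fgf17 and Fgfr4, with few counts, differed by 1.71 ± 0.49 (adjusted p = 0.0169) and 2.64 ± 0.78 (adjusted p = 0.0206). That of Fgf17 was lost without 4h 4_1 (adjusted p = 0.0964), rev 4_1 (0.073) or rev 8_1 (0.086), and that of Fgfr4 without 4h 4_1 (0.253), 4h 8_2 (0.0743), rev 4_2 (0.14) or rev 8_2 (0.135). Both were lost with DESeq2 (0.0635 and 0.0971) and library totals (0.18 and 0.0593).

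The feedback and target genes of FGF signalling rose in both clones. All 15 listed genes were tested, and in induced against not induced libraries 12 rose and 0 fell, where 8.28% of all genes were called. Their median log2 change was 1.33 against 0.00 over all tested genes. This list overlaps genes already known to respond in these libraries, so it is no independent evidence. Egr1, an immediate-early transcription factor, rose by 6.06 ± 0.26 (adjusted p = 4.64e-12), and Spry4, a Sprouty inhibitor of RAS signalling, by 6.0 ± 0.25 (adjusted p = 4.64e-12). The ERK phosphatases Dusp6 and Dusp4 rose by 4.19 ± 0.27 (adjusted p = 3.85e-09) and 2.70 ± 0.36 (adjusted p = 5.76e-05). At 4h against 0h 15 of the 15 rose in clone 4, with a median of 2.00, and 9 in clone 8, with a median of 0.91. Of all genes 19.0% were called there in clone 4 and 6.28% in clone 8. At rev against 4h 13 fell in clone 4 (median -1.56) and 10 in clone 8 (median -0.83), where 24.6% and 6.42% of all genes were called. The clone with the larger median had the larger changes of Fgf4 and Fgfr1; the part of one in the other was not tested.

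The other listed genes of the pathway were counted in the same contrast of induced with not induced libraries, where 8.28% of all genes were called. Of 18 other FGF ligands 5 were tested (Fgf1, Fgf2, Fgf3, Fgf11, Fgf13), and 0 were called by edgeR's test (adjusted p = 0.257 to 0.958) or by DESeq2, with 0 at an unadjusted p under 0.05 and a median log2 change of -0.04 against 0.00 over all genes. Of 18 co-receptors and extracellular partners 16 were tested and 3 rose, with a median of -0.04 over the list. They were Fgfbp1, a carrier of FGF like Fgfbp3 (1.65 ± 0.17, adjusted p = 3.97e-06), the glypican Gpc4 (0.57 ± 0.10, adjusted p = 0.00124) and the syndecan Sdc4 (0.32 ± 0.10, adjusted p = 0.0479). Fgfbp1 averaged 1.34 ± 1.45 CPM at 0h, 10.6 ± 9.45 at 2h, 12.0 ± 10.5 at 4h and 8.74 ± 7.75 at rev (SD, n = 4). Its change at rev against 4h was not called (-0.44, adjusted p = 0.197). Of 12 genes of heparan sulfate synthesis 10 were tested, with a median of 0.02. The polymerase Ext1 rose by 0.33 ± 0.08 (adjusted p = 0.0167), and the sulfotransferases Ndst1 and Hs6st1 fell by 0.43 (SE 0.09, adjusted p = 0.00584) and 0.37 (SE 0.11, adjusted p = 0.0486). Of 14 adaptors and effectors, all tested, 1 rose, a count near the share of all genes. It was Cbl, a ubiquitin ligase that marks receptors for turnover (0.24 ± 0.06, adjusted p = 0.0192), and the median of the list was 0.06. Grb2 and Ptpn11, the partners of Frs2, averaged 43.2 ± 2.86 and 41.4 ± 3.86 CPM at 0h and 49.9 ± 9.10 and 44.2 ± 5.20 at 4h (SD, n = 4).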

How the data were processed

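Per the labels' protocols, total RNA of CRAFR26 cells was depleted of ribosomal RNA and made into libraries with the NEBNext Ultra II kit. The authors deposited raw read counts, whole numbers that were not normalized, for 52636 Ensembl gene IDs in each of 16 libraries. Per the submitters' processing notes, bcl2fastq 2.19.1, STAR 2.5.3a and the build mm10 were used. The counting program, annotation and strand setting are not given in the sources used here, so it is not known whether reads of a gene and its antisense partner were counted apart.

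Groups came from the sample titles (4 groups, 4 libraries each, 2 from each of 2 clones). Symbols and 1-based coordinates came from GENCODE M21 on GRCm38, where 52489 IDs matched and 147 did not. Promoter sequences are RefSeq's (GRCm38.p6). The counts as deposited were tested with edgeR 4.0.16 (R 4.3.3) by its quasi-likelihood test. The filter was edgeR's filterByExpr with the groups given and its minimums of 10 counts and 15 in total; it left 12742 genes, which were scaled by TMM. The model held group and clone. Differences between clones were interaction terms, and each clone was also fitted alone. The p-values were adjusted after Benjamini and Hochberg across the 12742 genes and called under 0.05. The SE is the log2 change over the square root of F. CPM are TMM-scaled, and a prior count of 2 entered log2 CPM.

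Library totals ran from 4.31 to 10.4 M counts. Counts of the 2 libraries of a clone and group differed beyond sampling noise in all 8 pairs, so all 16 were kept. The procedure was tested on simulated data. Alternatives were an adjusted p under 0.01, other scalings, no filter, DESeq2 1.42.0, a replicate block, no clone covariate, each clone alone and leaving out each library. The members and gene lists were chosen with earlier results of these data known. All 10 members were named whatever their values; from each list, at most the 4 largest called rises and falls in the induced contrast were named, and for the 2 members with the largest F over groups the 3 genes of nearest profile. Ctbp2, Nanog, Klf4, Utf1, Esrrb, Zfp42, Tfcp2l1, Pou5f1, Sox2, Eomes, Evx1, Pax6, Sox1, Pou3f1, Lef1, Sox3, Grb2 and Ptpn11 were named after their values were seen.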

Additional observations from a re-analysis of the deposited data

Results flagged for a closer look

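In 4 of the 40 groups of 4 libraries (10 members in 4 groups) the highest or lowest library stood far from the other 3, where chance flags about 1 in 20 groups. Fgf8 at 0h had its only count in the library 4_2 (0.152 CPM). Fgf15 at rev was highest in 4_1 (1.02 CPM). Fgf17 at 4h was lowest in 8_2 (2.91 CPM). Fgfr3 at 0h was lowest in 8_2 (0.287 CPM). All 4 genes had at most 35 counts in any library.

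The change differed between the clones by the interaction test for 10 combinations of member and comparison, given on the log2 scale as clone 8 minus clone 4. At 2h against 0h these were Fgfr1 (0.49) and Fgfr2 (-0.71). At 4h against 0h they were Fgf4 (1.39), Fgfr1 (0.79) and Fgfr2 (1.22). At rev against 4h they were Fgf4 (-0.97), Fgf17 (1.71), Fgfr1 (-0.61), Fgfr2 (-2.04) and Fgfr4 (2.64).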

How the results depend on the processing

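The counts of called members rested on few genes and moved with several settings. With an adjusted p under 0.01 the members called fell from 2 to 1 at 4h against 2h and at rev against 4h, from 3 to 1 for 2h and rev against 0h and 4h, and from 5 to 2 for clone 8 against clone 4. The clone differences fell from 2 to 0 at 2h against 0h and from 5 to 3 at rev against 4h. Scaled by library totals alone, without TMM, the counts were 0 at 2h against 0h, 1 at 4h against 2h, 1 at rev against 4h, 1 for induced against not induced, 0 for 2h and rev against 0h and 4h, 3 for the clones, and 0 and 3 for the clone differences at 2h against 0h and at rev against 4h. Library totals moved the median of all genes by 0.106 at 2h against 0h, -0.141 at 4h against 2h, -0.199 at rev against 4h, -0.236 at rev against 0h and 0.152 for induced against not induced, and by 0.56, 0.348 and -0.667 in the 3 clone differences. Genes called overall then fell from 2162 to 446 at 2h against 0h and from 1645 to 513 at 4h against 0h. With no filter the members called were 2 at 2h against 0h, 4 at 4h against 2h, 1 at rev against 0h and 8 for the clones, more members being tested. Genes called overall in these were 2297, 2016, 1488 and 4868. DESeq2 called 1 at 4h against 2h, and 1 and 3 for the clone differences at 2h against 0h and at rev against 4h. It called 1566, 526 and 999 genes overall in these. Without the clone covariate 0 were called at 2h against 0h and 1 in each of the other 5 comparisons between groups with calls. Genes called overall were then 757 at 2h against 0h and 251 to 738 in those 5. Clone 4 alone, with fewer samples, called 4 of 7 tested members at 2h against 0h, where 20.7% of all genes were called. It called 7 at 4h against 2h (27.1% of all genes) and 5 at rev against 4h (24.6%). It called 1 at rev against 0h (16.8%) and 6 for 2h and rev against 0h and 4h (29.8%). Clone 8 alone called 1 of 6 tested members at 4h against 0h (6.28% of all genes) and at 4h against 2h (9.65%). It called 1 for induced against not induced (6.27%) and at rev against 4h (6.42%), and 3 at rev against 0h (9.90%). For Fgfr2 with clone 8 alone the change at 4h against 2h was 0.17 (adjusted p = 0.641) and that of 2h and rev against 0h and 4h was -0.57 (adjusted p = 0.00977), both opposite in sign to the values over both clones. Where no other value is given, the cause was not tested.

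The replicate numbers paired no libraries: deviations correlated at 0.375 for the same clone and number and at 0.384 for the same clone and the other number. The replicate block called 1 member in place of 2 at 4h against 2h and moved no other count of members by over 1.5 times.

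With each of the 16 libraries left out in turn, the members called ranged from 1 to 2 at 2h against 0h, 1 to 3 at 4h against 0h, 1 to 4 at 4h against 2h, 1 to 3 at rev against 4h, 0 to 0 at rev against 0h, 2 to 3 for induced against not induced, 1 to 4 for 2h and rev against 0h and 4h and 3 to 5 for the clones. For the clone differences they ranged from 0 to 3 at 2h against 0h, 2 to 3 at 4h against 0h and 3 to 5 at rev against 4h. Of 1900 single-gene values under alternatives, 1730 kept their direction and side of the threshold or stayed uncalled with either sign, 126 lost the call, 42 gained one and 2 changed sign. Fgf4 kept its direction and call under every alternative run at 4h against 0h and against 2h, at rev against 4h and for induced against not induced, and in its clone differences at 4h against 0h and at rev against 4h. Depth limited Fgf8, Fgf15 and Fgfbp3, which had at most 14 counts in any library.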
